A study of Mus musculus with 6 samples.

Results

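In regulatory T (Treg) cells, 9 genes of the TNF receptor superfamily that T cells can carry were followed, namely Tnfrsf1a, Tnfrsf1b, Tnfrsf4, Tnfrsf8, Tnfrsf9, Tnfrsf18, Tnfrsf25, Cd27 and Fas. They were taken by symbol from the 55450 genes of the table, and all 9 were among the 12155 genes tested. MC38, a colon carcinoma line that is transplanted into mice, formed the tumours from which the cells were sorted, and the mice were of the C57BL/6 strain. Of the 6 libraries, 3 came from mice whose Treg cells were sufficient for Tim-3, the inhibitory receptor encoded by Havcr2, and 3 from mice whose Treg cells were deficient for it. Column names mark the sufficient group as WT and the deficient group as KO. The allele, any Cre driver, the sex and the age of the mice are not given in the sources used here. Nor is it given whether a group's libraries stem from different mice. The p-values therefore rest on library-to-library spread, some of which may be technical.

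Receptors of this family sit on the cell surface as clusters of cysteine-rich domains and are engaged by trimeric ligands of the TNF superfamily. Most of them recruit TRAF adaptors and activate NF-kB, and in Treg cells this signal supports proliferation and survival. A subset, to which Tnfrsf1a, Tnfrsf25 and Fas belong, carries an intracellular death domain that can also start caspase activation. Treg cells in tumours are known for high levels of Tnfrsf4 (OX40), Tnfrsf9 (CD137) and Tnfrsf18 (GITR), which are targets of agonist antibodies.

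Libraries carry the marks of their column names: A1, B1 and dated among the sufficient ones, C1, D and dated among the deficient ones. A dated library has a calendar date in its name, and what the date records is not given in the sources used here. Havcr2 lay between 4.49 and 5.70 in sufficient and between 2.55 and 4.27 in deficient libraries on the log2(TPM + 1) scale, a log2 fold change of -1.83 ± 0.48 (SE) with a limma adjusted p of 0.211. The limma adjusted p was 0.0148 when the date mark entered as a block, where 1.97% of tested genes passed. It was 0.0328 among undated libraries alone (1.77% of tested genes) and 0.769 without sufficient B1 and deficient C1. TPM, a transcript abundance scaled by length and to a fixed total, keeps no read counts, so depth is unknown. The 6 Treg and T cell markers, Foxp3 among them, were present in each library. The summed level of 10 macrophage and monocyte markers was 671 TPM in sufficient B1 and 1084 TPM in deficient C1, against 15.7 to 105 TPM in the other 4 libraries. For 5 B cell markers the sum was 10.3 to 22.6 TPM in sufficient and 14.4 to 46.6 TPM in deficient libraries, nearly all of it Cd79b, with Ms4a1 at 0 in all 6. The 4 Y-linked genes examined summed to 0.01 TPM in deficient dated and to between 139 and 186 TPM in the other 5 libraries. Between the dated libraries, the group difference therefore cannot be told apart from this one. Fewer cells of a type and less RNA per cell cannot be told apart in these bulk libraries.

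Most of the signal came from 3 receptors. Tnfrsf4, Tnfrsf18 and Tnfrsf9 held between 95.05% and 96.4% of the summed TPM of the 9 members, and that sum was 0.79% to 1.41% of all transcripts in a library. Tnfrsf4 ranked between 10 and 29 among all 55450 genes of a library, Tnfrsf18 between 29 and 65, and Tnfrsf9 between 51 and 176. Because TPM is scaled by transcript length, levels can be ordered between genes. From high to low, the mean log2(TPM + 1) over 6 libraries was 12.36 for Tnfrsf4, 11.57 for Tnfrsf18, 10.67 for Tnfrsf9, 7.90 for Cd27, 6.55 for Tnfrsf1b, 5.71 for Fas, 5.30 for Tnfrsf25, 3.50 for Tnfrsf1a and 1.67 for Tnfrsf8. The order held in 6 of 6 libraries for each neighbouring pair except around Fas. Tnfrsf1b stood above Fas in 5 of 6 libraries (mean gap 0.83 ± 0.98, SD, n = 6), and Fas above Tnfrsf25 in 4 of 6 (0.42 ± 0.73). Over the 6 libraries those neighbours did not differ beyond their spread, which holds the difference between groups too. Fas stood above Tnfrsf25 in the sufficient libraries (means 5.47 and 4.58). Among deficient libraries it stood above in dated and below in C1 and D (means 5.96 and 6.01).

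**Figure D1:**
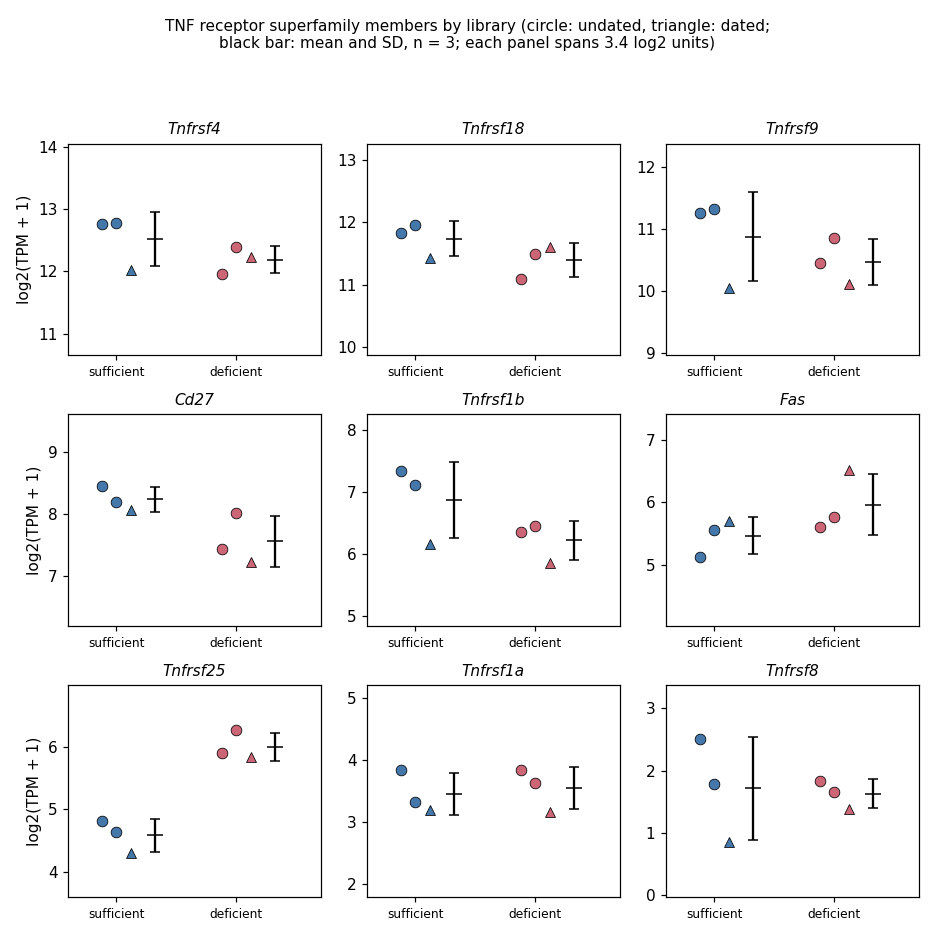
Level of each member in log2(TPM + 1), where each point is a library (triangle if dated, circle if not) and black bars give the group mean and SD (n = 3). Tnfrsf25 stands between 4.30 and 4.82 in sufficient and between 5.85 and 6.27 in deficient libraries, while the groups overlap in 7 of the other panels and are separated narrowly for Cd27.

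The single comparison asked how loss of Tim-3 in Treg cells changes these receptors. Tnfrsf25 stood higher in each deficient library, Cd27 lower in each, and the groups overlapped for the other 7. None of the 9 passed a limma adjusted p of 0.05 over all tested genes, against 0.206% of genes called over the whole table (16 genes or 0.132% on the higher side in deficient cells, 9 or 0.074% on the lower). After each library was centred on its median the split was 11 higher and 19 lower, and after quantile normalization 16 and 22. At an unadjusted p of 0.05, 2 of the 9 passed, where 11.7% of tested genes did. Groups did not overlap at 2 of 9 members, against 17.6% of tested genes. Of the 9 log2 fold changes, 6 were negative and 3 positive, against 39.9% and 60.1% of tested genes, and their median was -0.33, against 0.094 over all tested genes. Centring on library medians moved log2 fold changes by 0.13, and the members' median was then -0.46.

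The clearest separation belonged to Tnfrsf25 (ENSMUSG00000024793.14, GRCm38 chromosome 4, 152115934 to 152120119, plus strand). It encodes death receptor DR3, which binds the ligand TL1A (Tnfsf15) and whose stimulation is known to expand Treg cells. Its level was 27.3, 23.8 and 18.7 TPM in sufficient A1, B1 and dated, and 58.6, 76.1 and 56.8 TPM in deficient C1, D and dated. Each deficient library stood above each sufficient one, and deficient D was the highest of all. On the log2 scale the mean was 4.58 ± 0.27 in sufficient and 6.01 ± 0.23 in deficient libraries (SD, n = 3 each), a 2.68-fold higher level (log2 fold change 1.42 ± 0.21, SE). The adjusted p in limma was 0.0562, just short of the threshold. It was 0.0136 when the date mark entered as a block, where 1.97% of tested genes passed. It was 0.0327 among the undated libraries alone (1.77% of tested genes). After quantile normalization and median centring it was 0.0419 and 0.0435, where 38 and 30 of 12155 genes passed. It was 0.215 with no filter on low values and 0.12 with no variance trend. When 1 library was left out it ran from 0.0399 to 0.237. Without sufficient B1 and deficient C1, the libraries richest in macrophage transcripts, the log2 fold change was 1.5 with an adjusted p of 0.439, in a fit that called 0 genes. Undated libraries alone gave a difference of 1.36, and the dated pair one of 1.56.

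A promoter window is shown for Tnfrsf25 and for Tnfrsf18, an abundant member whose mean lay on the other side, so that the start region of both can be read. The sequences are from RefSeq on GRCm38.p6, run 5′ to 3′ on the gene's strand, and cover 250 bases before to 50 bases after an annotated start. Windows were found for 9 of 9 members, 11 in all. Tnfrsf25 is at chr4:152115684-152115983 and Tnfrsf18 at chr4:156026072-156026371, both on the plus strand. Capitals mark matches to a RUNX motif (TGTGGT) or a GC box (GGGCGG), searched on both strands. Matches may overlap each other.
Tnfrsf25: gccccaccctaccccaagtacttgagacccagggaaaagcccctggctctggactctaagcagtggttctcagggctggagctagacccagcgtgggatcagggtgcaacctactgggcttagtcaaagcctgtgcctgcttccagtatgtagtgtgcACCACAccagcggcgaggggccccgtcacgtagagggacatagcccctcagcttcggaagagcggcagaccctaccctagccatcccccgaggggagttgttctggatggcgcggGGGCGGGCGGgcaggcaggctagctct
Tnfrsf18: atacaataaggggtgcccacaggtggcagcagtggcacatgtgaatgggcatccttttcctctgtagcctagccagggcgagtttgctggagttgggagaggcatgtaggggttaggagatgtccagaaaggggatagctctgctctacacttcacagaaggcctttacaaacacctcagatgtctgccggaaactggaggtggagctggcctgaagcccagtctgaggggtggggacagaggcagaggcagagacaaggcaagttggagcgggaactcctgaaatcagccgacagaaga

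The Tnfrsf25 window shown held 1 RUNX match and 2 overlapping GC box matches, with 12 CpG dinucleotides and 63.3% G or C. The Tnfrsf18 window held neither, with 4 CpG and 55.3% G or C, against medians of 7 CpG and 52.7% over 32851 windows of that length. An AP-1 motif (TGANTCA) lay in 3 of the 11 member windows, namely those of Fas, Tnfrsf8 and the downstream start of Tnfrsf9, and in 7.81% of all windows. The other Tnfrsf25 window, at a downstream start (chr4:152116093-152116392), held 2 NF-kB matches, no RUNX match and no GC box, with 15 CpG. The NF-kB consensus lay in 3 of 11 windows, those of Tnfrsf8 and of the downstream starts of Tnfrsf25 and Tnfrsf9, and in 5.80% of all, the RUNX motif in 2 of 11 and 16.8%, the GC box in 5 of 11 and 35.7%, and a forkhead motif (TGTTTAC) in 0 of 11 and 3.65%. The motifs were chosen after the expression values were known, and a match describes letters, not a bound site.

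Cd27, a receptor for Cd70 that marks naive and memory lymphocytes, stood lower in deficient libraries (chromosome 6, 125232622 to 125237010, minus strand). It had 8.45, 8.20 and 8.06 log2(TPM + 1) in sufficient A1, B1 and dated, and 7.44, 8.02 and 7.23 in deficient C1, D and dated. The groups did not overlap, but deficient D lay just under the lowest sufficient library, and the other deficient libraries lay further below. The log2 fold change was -0.67 ± 0.22 (SE), with an unadjusted limma p of 0.0158 and an adjusted p of 0.288. Undated libraries gave -0.60 and the dated pair -0.82. Within a library, Cd27 exceeded Tnfrsf25 by 3.65 ± 0.10 on the log2 scale in sufficient and by 1.56 ± 0.19 in deficient cells (SD, n = 3 each), a 12.6-fold against a 2.94-fold excess. This pair was chosen after its values were seen.

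The 3 abundant receptors stood lower in the undated deficient libraries but not in the dated one. Tnfrsf4, the receptor OX40 (chromosome 4, 156013843 to 156016612), had 6937, 7025 and 4159 TPM in sufficient A1, B1 and dated, and 3963, 5352 and 4811 TPM in deficient C1, D and dated. The sufficient dated library lay below 2 of the deficient ones, so the groups overlapped. Tnfrsf18, the receptor GITR, had 3652, 3982 and 2765 TPM in sufficient and 2171, 2865 and 3094 TPM in deficient libraries, again with sufficient dated below 2 of the deficient libraries. Tnfrsf9, the receptor CD137 that activated T cells display, had 2426, 2550 and 1061 TPM and then 1396, 1850 and 1101 TPM. In each of the 3 genes the sufficient A1 and B1 libraries were the highest of the 6. The log2 fold changes were -0.33 ± 0.23 for Tnfrsf4, -0.35 ± 0.19 for Tnfrsf18 and -0.40 ± 0.35 for Tnfrsf9 (SE), with limma adjusted p between 0.521 and 0.686.

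Among undated libraries the differences of these 3 were -0.60, -0.61 and -0.63, while the dated pair gave 0.21, 0.16 and 0.055. That pair also differed in Y-linked level (139.5 TPM in sufficient dated, 0.01 TPM in deficient dated). Within the pair, this cannot be told apart from the group difference, nor from a change of that difference with the date mark. Over the 9 members, 5 differed in sign between undated libraries and the dated pair, against 38.6% of tested genes, and their median was -0.60 in the first and 0.16 in the second. The change of the effect with the date mark was itself tested by an interaction term in limma. None of the members passed (adjusted p between 0.727 and 0.985), and 0.0165% of tested genes did. At an unadjusted limma p under 0.05 the interaction passed at 3 of 9 members, against 6.1% of tested genes. These were Tnfrsf4 (interaction 0.81 ± 0.28, SE), Tnfrsf18 (0.77 ± 0.28) and Tnfrsf9 (0.68 ± 0.27), with unadjusted limma p of 0.0213, 0.0241 and 0.0389, and the residual spread of that fit comes from the undated libraries. Without sufficient B1 and deficient C1 the log2 fold changes of Tnfrsf4, Tnfrsf18 and Tnfrsf9 were -0.082, -0.094 and -0.17. That fit set sufficient A1 and dated against deficient D and dated, so the dated pair weighed more in it than among all 6 libraries. The part of macrophage transcripts in this change was not tested. Summed over the 9 members, the level was 13600 and 14070 TPM in sufficient A1 and B1 and between 7906 and 10560 TPM in the other 4 libraries. Summed Treg and T cell markers were also highest in sufficient A1 and B1, at 3534 and 3124 TPM, against 2157 TPM in sufficient dated and 2250 to 2803 TPM in deficient libraries. Of the summed markers, Ctla4 and Il2ra were highest in sufficient A1 and B1, while Foxp3, Ikzf2, Cd3e and Cd4 did not share that order. Foxp3 had 5.52, 5.21 and 4.82 log2(TPM + 1) in sufficient A1, B1 and dated. It had 5.56, 5.48 and 5.43 in deficient C1, D and dated, a log2 fold change of 0.31 ± 0.21 (SE). The part of the difference in summed markers in the receptor values was not tested.

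**Figure D2:**
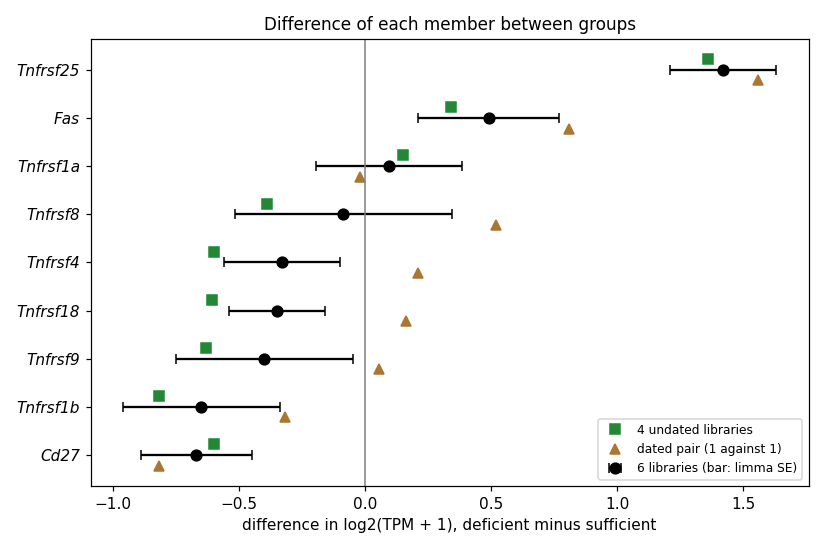
Difference in log2(TPM + 1), deficient minus sufficient, for each member: black circles for 6 libraries with the limma SE as bar, green squares for the 4 undated libraries and brown triangles for the dated pair. Tnfrsf25 lies at 1.36 to 1.56 in all 3, whereas Tnfrsf4 lies at -0.60 in undated libraries and at 0.21 in the dated pair.

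Both receptors for TNF itself were measured. Tnfrsf1b (TNFR2), the form that Treg cells carry at high levels, had 160, 137 and 71.2 TPM in sufficient A1, B1 and dated, and 81.1, 86.2 and 57.0 TPM in deficient C1, D and dated. The undated sufficient libraries stood above the rest, and the dated library was the lowest of its group on each side. The log2 fold change was -0.65 ± 0.31 (SE, limma adjusted p = 0.461), made up of -0.82 for undated libraries and -0.32 for the dated pair. Tnfrsf1a (TNFR1), the death domain receptor of most tissues, lay between 3.17 and 3.84 in all 6 libraries, with a log2 fold change of 0.094 ± 0.29 that changed sign to -0.041 after median centring. Tnfrsf1b exceeded Tnfrsf1a in each library, by 2.52 to 3.78 on the log2 scale.

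The date mark went with the level of some receptors. When it entered limma as a block, its term of Tnfrsf9 was -0.89 ± 0.18 and that of Tnfrsf1b -0.80 ± 0.16 (dated minus undated, SE), with limma adjusted p of 0.0454 and 0.0431, where 3.56% of tested genes passed and 2.99% passed with the dated libraries lower. Both were lower in dated libraries. Fas lay on the other side, higher in dated libraries at 0.60 ± 0.19 (limma adjusted p = 0.106). The same term was -0.076 ± 0.20 for Tnfrsf18 and -0.34 ± 0.20 for Tnfrsf4. This term was read after the data were seen.

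The remaining death receptor, Fas, triggers apoptosis on binding Fasl. It had 34.0, 46.0 and 51.4 TPM in sufficient A1, B1 and dated, and 47.7, 53.1 and 90.6 TPM in deficient C1, D and dated. One library, deficient dated, which also had Y-linked genes at 0.01 TPM, lay well above the others, which overlapped. The log2 fold change was 0.49 ± 0.28 (SE, limma adjusted p = 0.527), from 0.34 for undated libraries and 0.81 for the dated pair. Tnfrsf8 (CD30), an activation receptor of lymphocytes, was the least abundant member. It ranged from 0.81 TPM in sufficient dated to 4.69 TPM in sufficient A1, with 1.6 to 2.58 TPM in deficient libraries inside that range and a log2 fold change of -0.087 ± 0.43.

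Of the ligands these members bind, the partners of Tnfrsf4, Tnfrsf18 and Tnfrsf25 (Tnfsf4, Tnfsf18 and Tnfsf15) were below the filter, and 7 of the 10 were tested. None of the 7 passed, against 0.206% of tested genes. Values were positive at 2 and negative at 5, against 60.1% and 39.9% of tested genes. Their median was -0.19, against 0.094. At an unadjusted limma p of 0.05, 3 of 7 passed, against 11.7% of tested genes. In deficient libraries 1 was separated as higher and 2 as lower, against 10.9% and 6.73% of tested genes. Fasl, the ligand of Fas, had 6.73, 6.66 and 6.66 in sufficient and 5.20, 5.77 and 5.39 in deficient libraries. It was separated in each library, with a log2 fold change of -1.23 ± 0.18 (SE, limma adjusted p = 0.0562). It passed once the date mark was a block (limma adjusted p = 0.0234), where 1.97% of tested genes passed. Tnfsf8, the ligand of Tnfrsf8, had 1.77, 2.01 and 1.04 in sufficient and 3.37, 4.22 and 2.55 in deficient libraries. Its log2 fold change was 1.77 ± 0.47 (limma adjusted p = 0.208, and 0.0363 with the date block). Cd70, the ligand of Cd27, was lower in each deficient library at -1.34 ± 0.51, with 0.58 in deficient dated against 2.28 and 2.59 in the other deficient libraries. Ltb, a lymphotoxin chain, had 0.55 ± 0.30 and was 1 of the 2 positive values. The lymphotoxin beta receptor Ltbr was listed with the other receptors of the family, not with the members. The ligands that bind none of the members gave 5 tested genes of 8, with 0 past the threshold. At an unadjusted limma p of 0.05, 0 passed, against 11.7% of tested genes. Values ran from -0.21 for Tnfsf10 and 0.12 for Tnfsf14 to 0.21 for Cd40lg and 0.84 for Tnfsf13b, which activates B cells.

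Of 19 other receptors of the family, 10 were tested, 8 had positive values, against 60.1% of tested genes (7 after median centring, against 45.3%), and the median was 0.67, while 5 were higher in each deficient library, against 10.9% of tested genes, and none passed in limma (5 at an unadjusted p of 0.05, against 11.7% of tested genes). Tnfrsf26, Tnfrsf22 and Tnfrsf23, neighbouring mouse genes of which the last 2 encode decoy receptors for TRAIL, had log2 fold changes of 1.22 ± 0.24, 1.35 ± 0.38 and 0.87 ± 0.29 (SE). Tnfrsf26 and Tnfrsf22 passed with the date block (limma adjusted p = 0.0259 and 0.0409). They are close paralogs, so reads may be divided between them with uncertainty. Cd40, the co-stimulatory receptor of B cells and myeloid cells, had 1.66 ± 0.38, from 0.34 to 1.67 in sufficient and from 2.48 to 2.91 in deficient libraries. Cd79b stood at 3.48 to 4.52 in sufficient and 3.86 to 5.54 in deficient libraries. The part of other cells in the Cd40 value was not tested. The remaining separated receptor, Tnfrsf12a (Fn14, the receptor of Tweak), was named after its values were seen. It had 3.72, 3.84 and 3.58 in sufficient A1, B1 and dated and 7.99, 6.37 and 4.06 in deficient C1, D and dated (log2 fold change 2.43 ± 0.83, SE, limma adjusted p = 0.306). The macrophage marker sum was 1084 TPM in deficient C1, 15.7 TPM in deficient D and 671 TPM in sufficient B1. Without deficient C1 and sufficient B1 the log2 fold change of Tnfrsf12a was 1.57, and the dated pair, at 0.48, weighed more in that fit. The part of macrophage transcripts in the Tnfrsf12a value was not tested. The list was drawn up with earlier results of these data known.

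The genes downstream of the receptors were examined in 3 lists only. Among 16 adaptors and cell death genes, 16 were tested, 11 had positive values, none passed, and the median was 0.080. Cflar, which encodes the caspase inhibitor c-FLIP, was lower in each deficient library at -0.63 ± 0.18 (limma adjusted p = 0.233), and Tradd, the adaptor of death domain receptors, was higher in each at 0.42 ± 0.17. Fadd had 0.29 ± 0.27. Mlkl, the effector of necroptosis, had 0.92 ± 0.60, which split into 1.51 for undated libraries and -0.27 for the dated pair. Leaving out sufficient B1 and deficient C1 gave 0.31, with more weight on the dated pair. Of 14 ubiquitin regulators none passed, with a median of 0.22. Tnfaip3 (A20), a deubiquitinase that limits NF-kB, had 0.95 ± 0.28 and passed with the date block (limma adjusted p = 0.0280). Rnf31, a subunit of the linear ubiquitin ligase, had -0.54 ± 0.20, Birc2 0.36 and Cyld 0.30. Of 14 NF-kB subunits and inhibitors none passed, 10 were positive and the median was 0.22. Nfkb1 lay lower in each deficient library at -0.61 ± 0.22, while Rela at 0.47 ± 0.19 and the inhibitors Nfkbid at 0.76 ± 0.30 and Nfkbia at 0.51 ± 0.24 lay higher in each. Among those 3 lists, unadjusted limma p was under 0.05 for 2 of 16, 2 of 14 and 3 of 14 genes, against 11.7% of all tested genes, and positive values numbered 11, 8 and 10, against 60.1%. After median centring 6, 7 and 8 of their genes were positive, against 45.3%. Groups were separated with deficient higher at 1, 1 and 4 of their genes, against 10.9% of tested genes. They were separated with deficient lower at 1 gene of each list, against 6.73%. Of 6 shedding genes, 4 were tested and none passed (2 at an unadjusted limma p of 0.05, against 11.7% of tested genes). Adam17 and Adam10, proteases that cut TNF receptors and ligands from the surface, had -0.58 ± 0.22 and -0.54 ± 0.22 and were lower in each deficient library. That held for 2 of the 4 tested shedding genes, against 6.73% of tested genes. Frmd8 and Rhbdf2, which support Adam17, had 0.42 and 0.16.

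**Figure D3:**
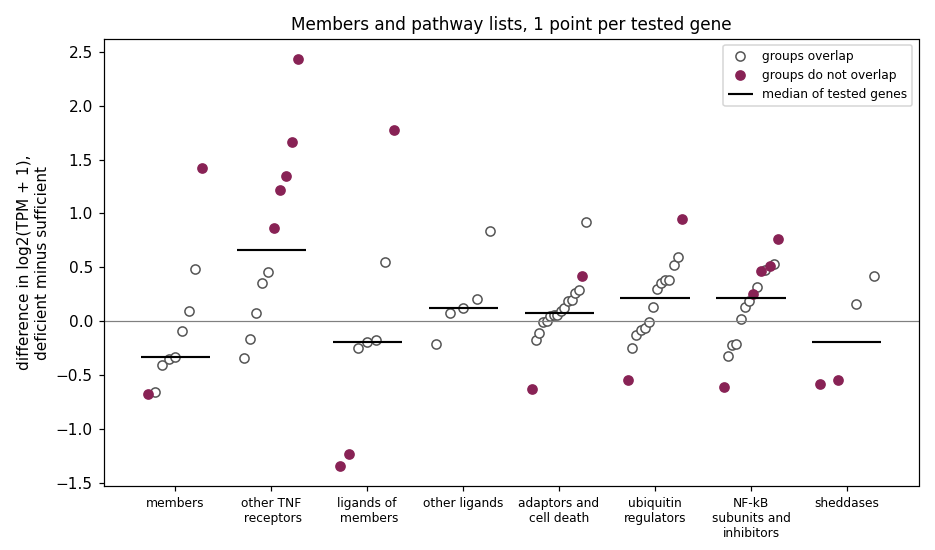
Difference in log2(TPM + 1), deficient minus sufficient, for the members and each tested gene of the 7 pathway lists, with filled points where the groups do not overlap and a line at the median of tested genes. The median is -0.33 for the members and 0.67 for the other TNF receptors, and lies between -0.19 and 0.22 for the other lists.

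The members are clustered in the genome. Of the 9, 6 lie on chromosome 4 within 10.8 Mb, 2 on chromosome 6 and 1 on chromosome 19. Tnfrsf4 and Tnfrsf18 are separated by 9.55 kb, and Tnfrsf1b and Tnfrsf8 by 20.3 kb. Over the 105 other tested genes in that stretch of chromosome 4 the median log2 fold change was 0.098 and none passed in limma. Within 50 kb of a member, 16 other genes were tested and none passed. Their log2 fold changes ran from -1.34 to 0.94 with a median of -0.082, against 0.094 over all tested genes, and 5 of 16 were separated between groups, against 17.6%. Sdf4, which encodes a calcium-binding protein of the Golgi and ends 0.2 kb before Tnfrsf4 on the same strand, had 11.12, 11.17 and 11.04 in sufficient and 9.94, 10.39 and 9.87 in deficient libraries. Its log2 fold change of -1.04 ± 0.16 (SE, limma adjusted p = 0.0684, and 0.0197 with the date block) was larger than that of Tnfrsf4.

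Beside Tnfrsf25, Espn (an actin-bundling protein) and Plekhg5 were also higher in each deficient library, at 0.94 ± 0.34 and 0.41 ± 0.27, from means of 1.83 and 0.78 in sufficient cells. Espn lies on the opposite strand, 0.2 kb from Tnfrsf25. Beside Cd27, Vamp1, which overlaps it on the opposite strand, had -0.63 ± 0.27, and the transcript 4930417O13Rik, 28.5 kb away, had -1.34 ± 0.34. Both were lower in each deficient library. Gm16008, annotated antisense to Tnfrsf18, had 0.61 ± 0.63, and Camta1, which overlaps Tnfrsf9 on the other strand, 0.0083 ± 0.17. No source used here says that strand was kept, so reads of overlapping genes cannot be told apart. The other neighbours had values of -0.63 for C1qtnf12, -0.51 for Ncapd2, -0.24 for Gm37090 and Tapbpl, -0.15 for Vps13d, -0.013 for Errfi1, 0.023 for Mrpl51, 0.11 for Park7 and 0.44 for B3galt6.

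Profiles over the 6 libraries were compared between genes. Likeness was measured as the root mean square difference of log2 values centred on each gene's mean. The 5 tested genes most like Tnfrsf25 were Serpinb1a at 0.132, Il7r at 0.139, Dennd2d at 0.155, Bcl2 at 0.177 and Pja1 at 0.180. They were picked by their values in these same libraries, so their differences between groups follow from the choice and are no separate support. Il7r, the interleukin 7 receptor chain, stood at 5.98 to 6.90 in sufficient and 7.76 to 8.24 in deficient libraries, a log2 fold change of 1.39. Bcl2, which blocks apoptosis, had 1.36, Serpinb1a 1.28, Pja1 1.26 and Dennd2d 1.18, and none of the 5 passed in limma (adjusted p from 0.0691 to 0.186). The closest pair of members was Tnfrsf4 with Tnfrsf18 at 0.13, followed by Tnfrsf1b with Tnfrsf9 at 0.19. From Tnfrsf25 the other members lay between 0.67 (Fas) and 1.07 (Tnfrsf1b). The Tnfrsf4 level exceeded that of Tnfrsf18 by 0.78 ± 0.17 in sufficient and 0.80 ± 0.14 in deficient libraries (SD, n = 3 each). These values describe 6 libraries.

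**Figure D4:**
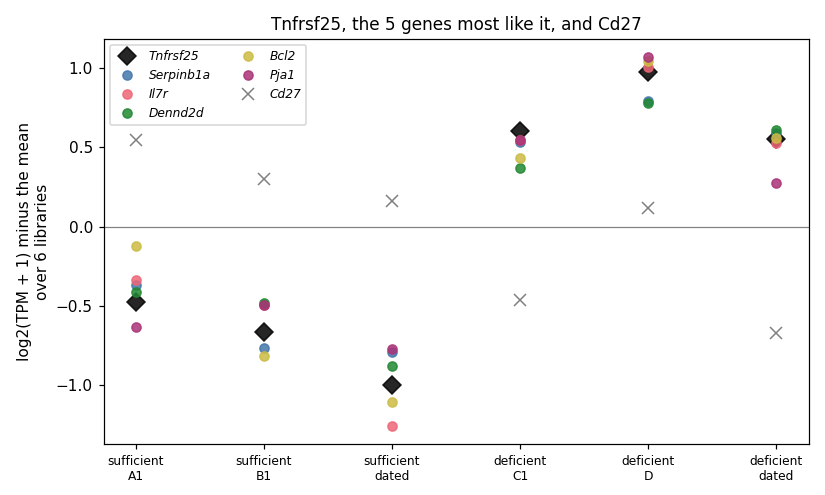
Level in log2(TPM + 1) minus each gene's mean over 6 libraries, by library, for Tnfrsf25 (diamonds), the 5 tested genes most like it (circles) and Cd27 (crosses). Tnfrsf25 and the 5 genes lie below 0 in the 3 sufficient and above 0 in the 3 deficient libraries, while Cd27 lies above 0 in the sufficient libraries and in deficient D. The 5 genes were chosen by this profile, so the side they share with Tnfrsf25 follows from the choice.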

How the data were processed

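RNA of 6 Treg cell libraries was sequenced as 75 bp pairs after Nextera XT library preparation, per the labels' protocols. The submitters' processing notes list the tools STAR, RSEM and limma, giving no versions, and GRCm38 and mm10 as builds. Values as deposited by the authors are log2(TPM + 1): raised back and less 1, each library summed to between 999999 and 1000001. All 55450 identifiers matched GENCODE release 21 for mouse (GRCm38), and 27 altered symbols were replaced from it. Column names gave the group but no replicate number.

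A gene was tested where its deposited log2 value reached 1 in 3 or more libraries. The test was limma (lmFit, eBayes with trend, no covariate), two-sided, with Benjamini-Hochberg adjustment over 12155 genes and a threshold of 0.05. Fold changes are on the log2(TPM + 1) scale, which understates changes of low genes. Members and lists were chosen with earlier results of these data known. Genes were named as follows: all members, up to 4 genes of smallest p per list and any past the threshold, tested genes within 50 kb of a member, the 5 genes most like the member of smallest p, and Havcr2. Marker lists for Treg, CD8 T, NK, B, macrophage, neutrophil, dendritic, stromal and tumour cells were summed in TPM. For CD8 T cells the sums were 11.3 to 28.4 TPM in sufficient and 11.8 to 42.5 in deficient libraries, for NK cells 0.20 to 12.1 and 1.10 to 9.30, for neutrophils 1.16 to 5.48 and 0.77 to 3.23, for dendritic cells 4.64 to 9.58 and 2.55 to 8.63, for fibroblast and endothelial cells 20.0 to 34.6 and 17.7 to 35.4, and for tumour epithelium 9.80 to 17.2 and 12.8 to 24.6, with Krt8 and Krt19 at 0 throughout.

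The fit was checked on simulated data. Alternatives covered the filter, scaling, pseudocount, variance model, threshold, the date mark as a block, and leaving out libraries. limma 3.58.1 ran in R 4.3.3, and tables and figures were made with pandas 2.3.3 and matplotlib 3.10.9 in Python 3.11.15. The term of the date mark was read after the data were seen.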

Additional observations from a re-analysis of the deposited data

How the results depend on the processing

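No paired analysis was possible because the column names carry no replicate number, so the numbers in the labels could not be tied to columns. Depth is unknown, so the counting error of low genes such as Tnfrsf8 could not be computed. Of 12155 genes, 25 were called. That count was 1 with no filter on low values, 4 with no variance trend, 38 after quantile normalization (16 higher, 22 lower), 30 after median centring, 240 with the date mark as a block, 215 without both dated libraries, 90 at an adjusted p under 0.10 and 0 without sufficient B1 and deficient C1, a choice made after the data were seen. Leaving out 1 library gave between 0 and 121 calls: 0 without sufficient B1, 0 without deficient D, 2 without sufficient A1, 11 without deficient C1, 24 without sufficient dated and 121 without deficient dated. Of the 9 members, 0 were called. That became 1, Tnfrsf25, after quantile normalization, after median centring, with the date mark as a block, without both dated libraries and at an adjusted p under 0.10, and ranged from 0 to 1 when 1 library was left out (1 without deficient dated, adjusted p = 0.0399). Over 16 alternatives the log2 fold change of Tnfrsf25 ran from 1.28 to 1.54, with adjusted p from 0.0136 to 0.439. Tnfrsf1b, Tnfrsf4, Tnfrsf9, Tnfrsf18, Cd27 and Fas also kept their sign in these 16.

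The sign of Tnfrsf1a turned from 0.094 to -0.028 after quantile normalization, -0.041 after median centring and -0.11 without sufficient B1 and deficient C1, with -0.052 to 0.28 when 1 library was left out. Tnfrsf8 then ran from -0.52 to 0.31. Among other named genes, median centring gave -0.012 for Tnfsf14, -0.11 for Mrpl51, -0.13 for Camta1 and -0.020 for Park7. Quantile normalization gave -0.10 for Mrpl51 and -0.10 for Camta1, and a pseudocount of 0.1 gave -0.062 for Tnfsf14. Without both dated libraries Cd40lg was at -0.17 and Rhbdf2 at -0.10. Without sufficient B1 and deficient C1, Mrpl51 was at -0.068, Vps13d at 0.35, Camta1 at -0.082 and Errfi1 at 0.073. Leaving out 1 library gave -0.0038 to 0.46 for Cd40lg, -0.46 to 0.058 for Tnfsf10, -0.24 to 0.63 for Tnfsf14, -0.15 to 0.36 for Rhbdf2, -0.61 to 0.032 for Tapbpl, -0.094 to 0.14 for Mrpl51, -0.23 to 1.02 for Gm16008, -0.37 to 0.21 for Vps13d, -0.085 to 0.091 for Camta1 and -0.50 to 0.33 for Errfi1. The causes were not tested.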
